A study of Cricetulus griseus with 24 samples.

Results

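The exit of the A0 line from growth was followed by comparing its RNA at stationary phase with its RNA at exponential phase. Members were the libraries titled A01 to A04, which came to 12 of the 24 libraries of the series. A0 is a single clone of CHO DG44, a Chinese hamster ovary host. It carries a plasmid with an antibody heavy chain and a plasmid with the light chain and neomycin resistance, and it is the low-producing parent of the methotrexate-amplified clone A1. All groups used here grew in suspension in batch culture, and no genotype or drug separated the growth phases of A0. Exponential phase had 8 libraries of 4 cultures, and stationary phase had 1 library for each of 4 cultures. The libraries of an exponential culture, which were a plain library and one marked RLT for cultures 1 and 2, and a plain library and one marked Duplicate for cultures 3 and 4, were summed. The labels do not explain the mark RLT. The methods describe replicate batch cultures in Erlenmeyer flasks, but the labels do not tie each numbered culture to a flask, so the p-values measure the spread between these samples, which may be technical. The lines A1 and CHO-S, a CHO line with no antibody, each had 3 cultures at each phase and served to show where A0 differed. The CHO-S libraries are titled NDST-1 to NDST-3, a name that the paper does not explain.

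In batch culture, cells divide at a steady rate until nutrients run down and waste products build up, and then stop dividing. Genes for DNA synthesis and mitosis are transcribed mainly in dividing cells, under the E2F and Myb families of transcription factors. Cells that lack amino acids, or whose endoplasmic reticulum (ER) fills with unfolded protein, halt most translation while making the transcription factors Atf4 and Ddit3, a program known as the integrated stress response, and they raise ER chaperones through the unfolded protein response.

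Reads assigned to genes came to 8479208 to 14586630 per exponential library and 10727892 to 12913264 per stationary library. The 10 most abundant genes held 3.33% ± 0.262 of the counts at exponential phase and 5.88% ± 0.864 at stationary phase (SD, n = 4). Cultures 1 and 2 deviated together from cultures 3 and 4 at both phases, so counts within a set are given for a list where a count of at least 5 members moved by over 1.5 times. The plain and RLT libraries of culture 1 stood farther apart (chi-square of 26.8 per degree of freedom over genes) than the plain libraries of cultures 1 and 2 (2.43), and without the RLT libraries 7192 of the calls given next still passed. The markers of a CHO cell were high, with 34252 to 35710 counts of Vim per exponential culture and 9425 to 9965 per stationary culture. The marker counts given here are raw. Each exponential culture sums 2 libraries and each stationary culture has 1, so these counts do not compare the phases. Of the markers of other cell types, Hbb and Fshr were at 0 and Ptprc, the leukocyte common antigen, had at most 2 counts in any culture. Star, which moves cholesterol into mitochondria of steroid-making cells, had 1057 to 1479 counts per exponential culture and 138 to 185 per stationary culture.

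Of 20267 genes tested, 7647 (37.7%) passed an adjusted p of 0.05 in edgeR's quasi-likelihood test, 3578 (17.7%) higher and 4069 (20.1%) lower at stationary phase. The rise came to 2-fold or more in 1378 genes (6.8% of those tested) and the fall in 1062 (5.24%). Of the 10511 genes with a mean of at least 5 CPM (counts scaled to the size of the library), 55.1% passed, 22.9% higher and 32.2% lower, which is the background for the well-expressed lists below. These shares hold for the scaling of the main test. With upper quartile scaling 4236 of all genes tested were higher and 3355 lower, and with total counts only 3985 and 3548. Which direction held more genes thus depended on the scaling. The 4 stationary cultures lay wholly above or wholly below the 4 exponential cultures in 7256 genes (35.8%). Taken alone, cultures 1 and 2 gave 7866 calls and cultures 3 and 4 gave 5195, and 4203 of the 7647 genes passed in both sets in the same direction. The median log2 fold change was 0.0013 over all genes tested.

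**Figure D1:**
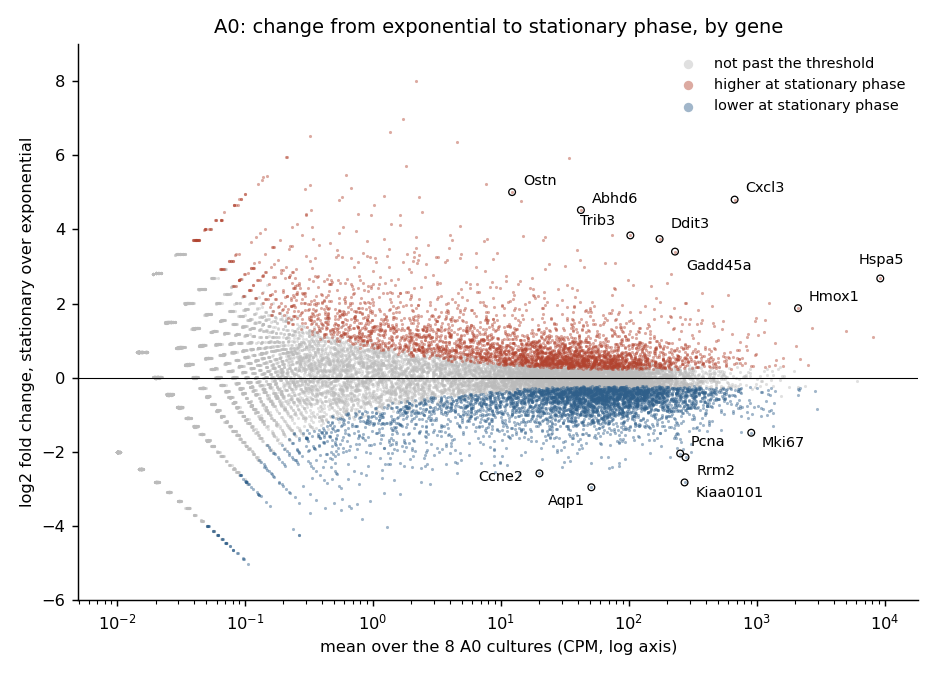
Each point is 1 gene of A0, with its mean over the 8 cultures (CPM, log axis) on the horizontal axis and its log2 fold change, stationary over exponential, on the vertical axis. Red and blue points passed the threshold (3578 higher and 4069 lower), and grey points did not. The diagonal rows at the left are genes with a few counts in all. Circled genes are described in the text, among them Hspa5 at the far right, with a log2 fold change of 2.68.

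The genes with the largest rises had varied roles. They were taken only from genes whose phases did not overlap, so their lack of overlap is not a further result. Ostn, the secreted peptide osteocrin, was at 0.858, 0.847, 0.997 and 0.215 CPM in exponential cultures 1 to 4 and at 21.9, 28.2, 20.7 and 24.4 CPM in the stationary cultures (log2 fold change 5.005 ± 0.248 SE, adjusted p = 1.3e-09 from edgeR). The stationary cultures of Ostn lay close together and far above every exponential culture. Abhd6, a lipase that cleaves the endocannabinoid 2-arachidonoylglycerol, stood at 4.37, 4.32, 2.78 and 2.58 CPM at exponential phase and 103.3, 103.4, 64.7 and 52.96 CPM at stationary phase (log2 fold change 4.52 ± 0.236, adjusted p = 2e-09). Cultures 1 and 2 of Abhd6 were higher than cultures 3 and 4 at both phases, and the phases did not overlap. Pla2g4e, a cytosolic phospholipase A2, had the largest value of the rule for naming genes (log2 fold change 5.23 ± 0.443), from 0.385 ± 0.193 to 14.9 ± 8.38 CPM.

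The other genes among the 12 largest rises were the chemokine genes Cxcl3 and Cxcl1, the stress genes Trib3 and Ddit3, which are described with their groups, and Scn4a, Cd68, Stmn4, Npsr1 and Sema3a. Cd68, a lysosomal glycoprotein best known from macrophages, rose from 2.98 ± 0.447 to 41.3 ± 24.3 CPM (SD, n = 4, log2 fold change 3.79), with 58.5 and 65.6 CPM in stationary cultures 1 and 2 and 24.1 and 17.1 CPM in cultures 3 and 4. Sema3a, a secreted semaphorin that guides axons, rose from 6.66 ± 0.581 to 72.0 ± 24.3 CPM (log2 fold change 3.43). Scn4a, a sodium channel subunit, Stmn4, a neuronal stathmin, and Npsr1, a neuropeptide receptor, had log2 fold changes of 3.82, 3.75 and 3.69 from at most 2.54 CPM in any exponential culture. A further 3 genes without a symbol ranked among these.

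The largest falls joined cell surface and signalling genes with genes of the cell cycle. Aqp1, a water channel, was at 96.0, 92.3, 68.2 and 105.9 CPM in the exponential cultures and 7.55, 7.10, 19.3 and 12.4 CPM in the stationary cultures (log2 fold change -2.96 ± 0.238, adjusted p = 1.3e-07 from edgeR). Its lowest exponential culture was above its highest stationary culture, which the rule for naming the largest falls required of every gene. Wnt4, a Wnt ligand, was at 124.3, 126.6, 100.7 and 120.0 CPM before and 25.9, 20.7, 21.5 and 19.4 CPM after (log2 fold change -2.43 ± 0.116, adjusted p = 1.1e-09). The phases of Wnt4 were likewise apart. Lfng, which adds sugars to Notch receptors, fell by 2.54 on the log2 scale, Apln, which encodes the peptide apelin, by 2.35, and Krt80, an epithelial keratin, by 2.31. Ranbp3l fell by 2.38 on the log2 scale, with a wide spread at exponential phase, at 71.6, 69.4, 160.4 and 260.3 CPM. A further 1 gene without a symbol ranked among these 12, of which Kiaa0101 (a binding partner of the DNA clamp Pcna), Ccne2, E2f8, Dna2 and Dut act in DNA synthesis or its control and Ggh in folate breakdown.

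DNA replication genes fell together. Of 50 genes tested, which cover origin licensing, helicase, clamp, polymerases and deoxynucleotide supply, 46 were lower at stationary phase, 0 were higher, and the median log2 fold change was -1.13. Rrm2, the regulated subunit of the reductase that makes deoxynucleotides, was at 525, 515, 444 and 331 CPM in exponential cultures 1 to 4 and 89.2, 79.3, 112.6 and 128.4 CPM in stationary cultures 1 to 4 (log2 fold change -2.15 ± 0.162, adjusted p = 6.8e-08 from edgeR). Pcna, the sliding clamp, was at 528, 431, 357 and 312 CPM and then at 89.5, 86.0, 101.9 and 116.4 CPM (log2 fold change -2.05 ± 0.150, adjusted p = 4.5e-08). For both genes the exponential cultures spread more widely than the stationary cultures, with no overlap. Dut, which keeps uracil out of DNA, fell by 2.31 and Tk1, thymidine kinase, fell by 1.92 on the log2 scale. Kiaa0101 was at 544, 571, 547 and 256 CPM and then at 43.4, 41.8, 83.5 and 101.1 CPM (log2 fold change -2.83 ± 0.282, adjusted p = 1.1e-06). Pola1, the catalytic subunit of the priming polymerase, was at 94.0 ± 8.78 CPM before and 103.1 ± 15.1 CPM after, a log2 difference of 0.13 that did not pass (adjusted p = 0.38).

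Genes of mitosis and the kinetochore moved the same way. Of 62 tested, 60 were lower, 0 were higher, and the median log2 fold change was -0.97. Mki67, the proliferation antigen that coats mitotic chromosomes, was at 1031, 1237, 1704 and 1382 CPM at exponential phase and 330, 333, 583 and 665 CPM at stationary phase (log2 fold change -1.49 ± 0.208, adjusted p = 3.1e-05 from edgeR). Stationary cultures 1 and 2 of Mki67 kept less than cultures 3 and 4. The same order was seen for Mybl2, the cell cycle Myb protein, at 87.7, 85.8, 153.2 and 146.3 CPM in the stationary cultures (log2 fold change -1.73), for Sgo2, a protector of centromeric cohesion (-1.67), and for Stmn1, which destabilizes microtubules (-1.63). Plk1, a mitotic kinase, fell by 1.58 on the log2 scale. Cdk1, the kinase partner of the mitotic cyclins, was at 152.1 ± 13.6 CPM before and 147.5 ± 14.1 CPM after, with a log2 difference of -0.04 (adjusted p = 0.77), which turned positive with other scalings. Cenpf, a kinetochore protein, had a log2 difference of -0.58 (adjusted p = 0.067), and -0.66 with the culture number as a block (adjusted p = 1.7e-10).

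Among cyclins, kinases and inhibitors of the G1 phase, 15 of 23 were lower and 1 was higher (median log2 fold change -0.65). Ccne2 and Ccne1, the E-type cyclins that start S phase, had log2 fold changes of -2.58 and -1.89, and E2f8 and E2f2, E2F family members of opposite action on their targets, had -2.42 and -2.02. Ccnd1, cyclin D1, was at 362, 360, 332 and 335 CPM and then at 144, 141, 128 and 159 CPM (log2 fold change -1.28 ± 0.0944, adjusted p = 4.7e-08 from edgeR). The single member that rose was Ccnd2, cyclin D2, named after its value was seen, from 71.5 ± 8.42 to 105.7 ± 10.4 CPM (log2 fold change 0.57). No inhibitor passed as higher. Cdkn1b, p27, fell from 37.6 ± 4.13 to 23.97 ± 3.64 CPM (log2 fold change -0.65, adjusted p = 0.00053), though within cultures 3 and 4 it did not pass (adjusted p = 0.057), and Cdkn1a, p21, was at 102.1 ± 15.03 CPM before and 103.0 ± 4.60 CPM after (adjusted p = 0.95).

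**Figure D2:**
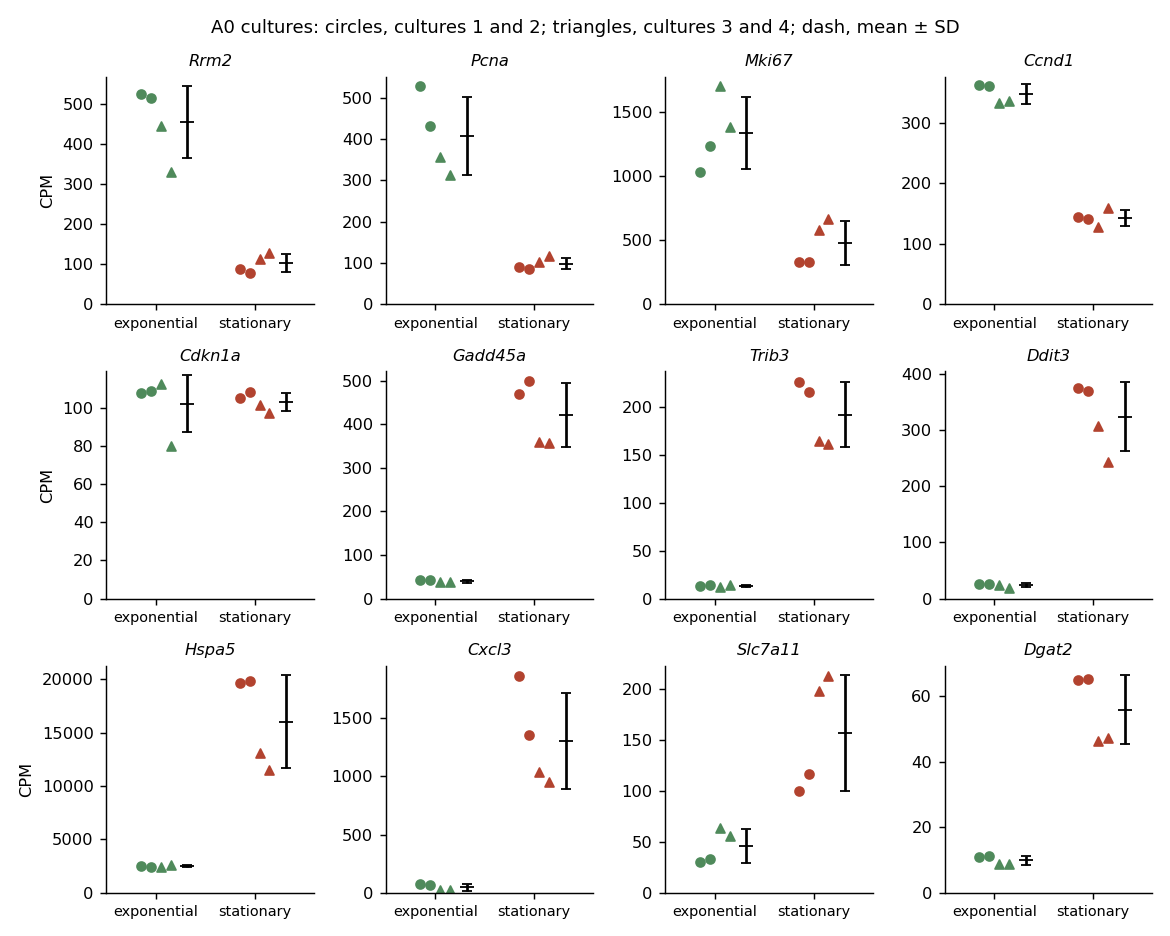
Each panel gives 1 gene in the 8 A0 cultures on a linear axis in CPM from 0, exponential cultures in green and stationary cultures in red, with the mean ± SD (n = 4) beside them. Rrm2, Pcna, Mki67 and Ccnd1 were lower in all 4 stationary cultures, Cdkn1a overlapped, and the remaining 7 genes were higher in all 4 stationary cultures. Circles (cultures 1 and 2) and triangles (cultures 3 and 4) stand apart for several genes, such as Hspa5 and Slc7a11.

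The targets of p53 split. Of 26 tested, 8 were higher and 4 lower, with a median log2 fold change of 0.05, and in cultures 3 and 4 alone 5 were higher. Gadd45a, a growth arrest gene that p53 and Atf4 both induce, was at 41.9, 43.1, 37.1 and 37.3 CPM at exponential phase and 468, 498, 359 and 357 CPM at stationary phase (log2 fold change 3.40 ± 0.129, adjusted p = 1.1e-10 from edgeR). Plk2, a stress-induced kinase, rose from 53.3 ± 7.85 to 371.6 ± 7.29 CPM (log2 fold change 2.80), with nearly the same level in all 4 stationary cultures. Sesn2, a stress-induced inhibitor of growth signalling through mTORC1, rose from 10.01 ± 1.18 to 79.1 ± 9.68 CPM (log2 fold change 2.98), and Tp53inp1 had a log2 fold change of 1.54. Mdm2, the ubiquitin ligase of p53 and one of its classical targets, was at 146.7 ± 7.53 and 152.1 ± 7.44 CPM (adjusted p = 0.69). Sesn2 also belongs to the list of the integrated stress response.

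The integrated stress response was the list with the largest share of members that rose. Of 46 tested, 35 were higher, 25 of them at least 2-fold, and 0 were lower, with a median log2 fold change of 1.16. Trib3, a pseudokinase that dampens Atf4, was at 13.03, 14.4, 11.9 and 14.6 CPM in the exponential cultures and 227, 217, 165 and 161 CPM in the stationary cultures (log2 fold change 3.84 ± 0.136, adjusted p = 7.5e-11 from edgeR). Ddit3, the stress transcription factor also called CHOP, was at 26.6, 26.2, 24.7 and 19.6 CPM and then at 376, 370, 309 and 243 CPM (log2 fold change 3.74 ± 0.150, adjusted p = 1.3e-10). Atf3, a factor of the same family as Atf4, rose from 5.11 ± 0.681 to 39.4 ± 6.86 CPM (log2 fold change 2.94). Each of the 3 genes was higher in stationary cultures 1 and 2 than in 3 and 4, and none came near its exponential range. Eprs, a tRNA synthetase, was at 300.6 ± 20.4 and 340.2 ± 16.7 CPM (adjusted p = 0.14), and it passed with DESeq2 (adjusted p = 0.033).

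ER chaperones and other genes of the unfolded protein response rose in 31 of 46 cases and fell in 5, with a median log2 fold change of 0.46, and in cultures 3 and 4 alone 23 rose and 1 fell. Hspa5, the main chaperone of the ER lumen, also called BiP, was at 2500, 2444, 2450 and 2634 CPM in exponential cultures 1 to 4 and 19647, 19843, 13080 and 11495 CPM in stationary cultures 1 to 4 (log2 fold change 2.68 ± 0.162, adjusted p = 6.8e-09 from edgeR). Hspa5 varied by little between the exponential cultures, and stationary cultures 1 and 2 stood above 3 and 4. It held 0.246% ± 0.0136 of all counts on genes before and 1.63% ± 0.425 after (SD, n = 4). Herpud1 and Sel1l, parts of the machinery that returns misfolded proteins for degradation, rose from 55.8 ± 10.1 to 212.2 ± 25.6 CPM and from 152.0 ± 24.5 to 451.7 ± 19.9 CPM. Pdia4, a disulfide isomerase, rose from 282.0 ± 28.3 to 812.9 ± 149.3 CPM. Against the majority, P4hb, the most abundant disulfide isomerase of many cells, fell from 1373 ± 93.8 to 1085 ± 72.7 CPM (log2 fold change -0.34, adjusted p = 0.0091), although it did not pass in cultures 3 and 4 alone (adjusted p = 0.066).

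Of 29 amino acid transporters tested, 11 were higher and 4 lower, with a median log2 fold change of 0.45, and 7 of the 11 are also members of the integrated stress response list. Slc7a11, the cystine importer, was at 30.7, 33.2, 63.5 and 56.2 CPM and then at 100.1, 116.8, 197.9 and 213.4 CPM (log2 fold change 1.78 ± 0.250, adjusted p = 3.3e-05 from edgeR). Cultures 3 and 4 of Slc7a11 were higher than 1 and 2 at both phases, the reverse of the order seen for Trib3 at stationary phase. Slc6a9, the glycine transporter, rose from 6.74 ± 0.709 to 30.2 ± 0.746 CPM, Slc1a4, a transporter of neutral amino acids, from 22.9 ± 3.20 to 77.9 ± 26.2 CPM, and Slc38a4 from 4.06 ± 0.715 to 11.5 ± 2.87 CPM. Slc38a2, another carrier of neutral amino acids, was at 255.4 ± 15.7 and 295.5 ± 25.1 CPM (adjusted p = 0.092) and passed with DESeq2 (adjusted p = 0.026).

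Of 20 enzymes of glutamine, glutamate and proline metabolism, 4 were higher and 6 lower, both below the shares of genes of at least 5 CPM, and 3 of the 4 (Pycr1, Gpt2 and Asns) are also in the stress response list. Pycr1, which makes proline, rose by 1.69 on the log2 scale and Gpt2, a mitochondrial alanine aminotransferase, by 1.15. Asns, asparagine synthetase and a classical Atf4 target, was at 107.1, 113.6, 54.5 and 38.4 CPM and then at 224.8, 205.1, 178.6 and 183.7 CPM (log2 fold change 1.34 ± 0.248, adjusted p = 0.00042 from edgeR). The exponential cultures of Asns differed between the sets more than the stationary cultures did. Ppat, which commits glutamine to purine synthesis, fell by 1.08 on the log2 scale.

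Among targets of NF-kB and cytokines, 16 of 28 were higher and 3 lower (median log2 fold change 0.62). Cxcl3, a chemokine, was at 75.8, 65.3, 23.6 and 21.5 CPM at exponential phase and 1859, 1355, 1037 and 949 CPM at stationary phase (log2 fold change 4.80 ± 0.375, adjusted p = 9.4e-08 from edgeR). Cxcl1, a chemokine of the same family, was at 9.01, 9.80, 9.47 and 10.1 CPM and then at 219.4, 226.1, 66.8 and 43.5 CPM (log2 fold change 3.85 ± 0.411, adjusted p = 2.1e-06). The exponential cultures of Cxcl1 were all alike, while its stationary cultures fell into the 2 sets. Reads of such close family members may be split or dropped in counting, so these values are uncertain. Nfkbiz, an inducible NF-kB cofactor, had a log2 fold change of 2.23, and Relb, a subunit that NF-kB itself induces, rose from 10.6 ± 0.657 to 28.3 ± 1.44 CPM. Rela, the main activating subunit, was at 464.7 ± 52.7 and 448.1 ± 4.50 CPM (adjusted p = 0.72), and Icam1, an adhesion molecule and NF-kB target, at 120.1 ± 9.88 and 108.8 ± 26.6 CPM (adjusted p = 0.47). Within cultures 1 and 2 Icam1 was lower at stationary phase (log2 fold change -0.47, adjusted p = 0.0014).

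AP-1 and immediate early genes were higher in 15 of 33 cases and lower in 4 (median log2 fold change 0.42), with 8 lower in cultures 1 and 2 alone and 0 lower in cultures 3 and 4 alone. Maff, a small Maf protein, rose from 18.6 ± 0.702 to 40.4 ± 2.82 CPM and Dusp4, a phosphatase of MAP kinases, from 35.8 ± 3.62 to 81.6 ± 10.9 CPM. Spry2, an inhibitor of growth factor signalling, rose by 1.27 on the log2 scale. Fosl1, the most abundant member that did not pass, was at 415.1 ± 103.6 and 506.5 ± 75.2 CPM (adjusted p = 0.17 from edgeR), and it passed with the culture number as a block (log2 fold change 0.31, adjusted p = 0.0021). Of 38 interferon response genes, 13 were higher and 3 lower, with Mx1, an antiviral GTPase, at 17.6, 18.9, 27.1 and 32.4 CPM before and 67.1, 69.4, 67.6 and 68.6 CPM after. Mx1 reached nearly the same level in all stationary cultures from exponential levels that differed. Of 17 clock genes, 7 were higher and 1 lower, with 4 higher in cultures 3 and 4 alone, led by Nfil3, a repressor of clock outputs, from 15.5 ± 1.35 to 59.2 ± 3.47 CPM.

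Antioxidant genes of the Nrf2 pathway rose in 15 of 41 cases and fell in 7, with a median log2 fold change of 0.02, and 12 fell in cultures 1 and 2 alone and 4 in cultures 3 and 4 alone. Hmox1, which breaks down heme, was at 946, 986, 890 and 794 CPM and then at 4404, 3895, 2584 and 2371 CPM (log2 fold change 1.87 ± 0.169, adjusted p = 3.9e-07 from edgeR). Gss, the last enzyme of glutathione synthesis, rose from 105.3 ± 2.12 to 327.0 ± 36.8 CPM, and Sqstm1, the autophagy adaptor p62, from 67.4 ± 6.88 to 172.2 ± 34.1 CPM. Among genes of iron uptake and storage, 7 of 23 were higher and 6 lower, together near the share of genes of at least 5 CPM that passed. In cultures 1 and 2 alone 6 were higher and 7 lower. Fth1, the ferritin heavy chain, alone carried most of the counts of this list. Fth1 rose from 5189 ± 925 to 11105 ± 605 CPM (log2 fold change 1.10 ± 0.126, adjusted p = 4.3e-06) and held 0.507% ± 0.0832 and 1.13% ± 0.0510 of all counts on genes at the 2 phases. Txnip, an inhibitor of thioredoxin and of glucose uptake, rose from 68.8 ± 12.9 to 165.7 ± 4.65 CPM.

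Of 75 genes of autophagy and the lysosome, 33 were higher and 12 lower (median log2 fold change 0.17), and in cultures 3 and 4 alone 20 were higher and 7 lower. Gabarapl1, which sits in the autophagosome membrane, rose from 32.1 ± 2.99 to 108.4 ± 19.5 CPM (SD, n = 4). The lysosomal hydrolases Neu1, a sialidase, and Gaa, which degrades glycogen, both rose. Neu1 went from 21.1 ± 1.53 to 63.05 ± 11.9 CPM, and Gaa from 0.0662% ± 0.00578 to 0.163% ± 0.0155 of all counts on genes. Lamp1, a lysosomal membrane protein, went against the majority and fell from 875.8 ± 82.7 to 578.2 ± 51.5 CPM. The Foxo and growth factor list had 10 of 35 higher and 6 lower, with Insr, the insulin receptor, from 19.2 ± 2.35 to 52.2 ± 3.86 CPM and Igfbp4, an IGF binding protein, from 341.4 ± 82.8 down to 110.4 ± 15.9 CPM. On this list the share higher was a little above that of genes of at least 5 CPM, and the share lower was below it.

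**Figure D3:**
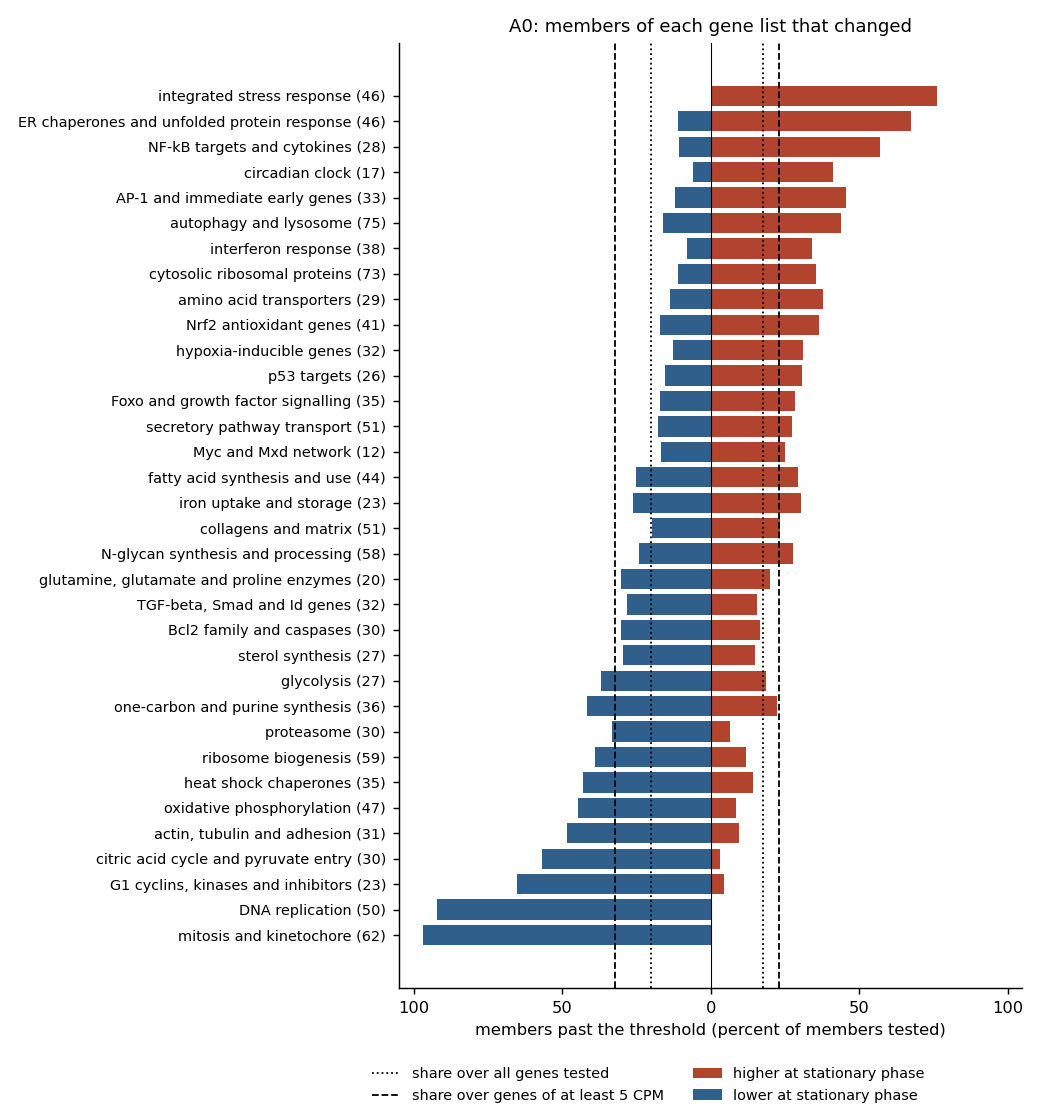
For each gene list (members tested in parentheses), the red bar gives the percent of members that were higher and the blue bar the percent that were lower at stationary phase, past an adjusted p of 0.05. Dotted lines mark the shares over all genes tested, 17.7% higher and 20.1% lower, and dashed lines the shares over genes of at least 5 CPM, 22.9% higher and 32.2% lower. The integrated stress response and ER chaperones reach farthest to the right, and mitosis and DNA replication farthest to the left.

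Genes of growth itself did not follow the cell cycle genes in one direction. Myc, the growth-promoting transcription factor, was at 126.0, 120.0, 104.1 and 93.5 CPM at exponential phase and 228.3, 187.0, 220.7 and 240.9 CPM at stationary phase (log2 fold change 0.98 ± 0.112, adjusted p = 4.3e-06 from edgeR). The phases of Myc did not overlap, and of the 12 genes of the Myc and Mxd network 3 were higher and 2 lower. Of 59 ribosome biogenesis genes, 23 were lower and 7 higher, with a median log2 fold change of -0.19, and 4 were higher in cultures 3 and 4 alone. Ubtf, a factor of RNA polymerase I, fell from 276.1 ± 27.0 to 135.5 ± 13.6 CPM, Rrp1b by 0.74 and Nop56, a core protein of box C/D particles, by 0.67 on the log2 scale. Nolc1, a nucleolar chaperone, fell from 514.6 ± 44.9 to 345.2 ± 20.2 CPM, Nop16 rose from 38.9 ± 5.25 to 61.8 ± 3.17 CPM, and Heatr1 was at 335.6 ± 81.7 and 288.2 ± 29.2 CPM (adjusted p = 0.26).

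Cytosolic ribosomal proteins were higher in 26 of 73 cases and lower in 8, but the split depended on the libraries. Without the RLT libraries 44 were higher and 8 lower, in cultures 1 and 2 alone 23 were higher and 19 lower, and in cultures 3 and 4 alone 34 were higher and 0 lower. Without exponential culture 1, 41 were higher, and without exponential culture 4, 15 were lower. Rps21 was at 2425, 1886, 1629 and 624 CPM in exponential cultures 1 to 4 and 922, 913, 835 and 839 CPM in the stationary cultures (log2 fold change -0.90, adjusted p = 0.01 from edgeR), and the call was lost in cultures 3 and 4 alone (adjusted p = 0.49). Rpl22 showed the same spread, at 484.6, 390.2, 413.3 and 175.1 CPM before. Rps23 and Rpl10 had log2 fold changes of 0.84 and 0.70, and Rpl4 one of -0.34 that passed narrowly (adjusted p = 0.036). The list held 5.45%, 4.71%, 4.10% and 3.92% of the counts in exponential cultures 1 to 4 and 4.88% to 5.14% in the stationary cultures. Ribosomal protein genes have many near-identical copies in the genome, and the reads of such copies are uncertain here.

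More mitochondrial energy genes fell than rose, and by small amounts. Of 30 genes of the citric acid cycle and pyruvate entry, 17 were lower and 1 was higher (median log2 fold change -0.33), and of 47 genes of oxidative phosphorylation 21 were lower and 4 higher (-0.22). In cultures 3 and 4 alone, 11 and 10 members of these lists were lower and 0 and 5 higher, and without the RLT libraries 20 genes of oxidative phosphorylation were lower and 10 higher. Pc, which feeds pyruvate into the cycle, fell from 114.9 ± 11.01 to 63.3 ± 17.8 CPM, Idh1 by 0.80 on the log2 scale, Me2 by 0.73 and Dlst, a subunit of oxoglutarate dehydrogenase, by 0.67. Atp5i and Atp5g3, subunits of the ATP synthase, fell by 0.94 and 0.89 on the log2 scale.

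Of 27 glycolysis genes, 10 were lower and 5 higher, both near the shares of genes of at least 5 CPM. The split turned to 6 lower and 7 higher with upper quartile scaling and was 6 lower and 4 higher in cultures 3 and 4 alone. Gapdh was at 4107, 4574, 4206 and 2520 CPM and then at 2253, 2213, 2012 and 2029 CPM (log2 fold change -0.86 ± 0.146, adjusted p = 0.0002 from edgeR), and it did not pass in cultures 3 and 4 alone (adjusted p = 0.064). Ldha, lactate dehydrogenase A, fell from 1302 ± 224 to 763.8 ± 57.1 CPM. Pfkfb4, a regulator of glycolytic flux, rose from 4.53 ± 1.02 to 16.8 ± 4.89 CPM and Pdk1, which holds pyruvate back from mitochondria, from 31.2 ± 3.20 to 51.3 ± 7.39 CPM. Of 32 hypoxia-inducible genes, 10 were higher and 4 lower, with Vegfa from 58.4 ± 8.38 to 127.4 ± 4.88 CPM and Ddit4, an inhibitor of mTORC1, from 7.46 ± 2.5 to 18.7 ± 6.08 CPM.

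Lipid genes went both ways. Of 44 genes of fatty acid synthesis and use, 13 were higher and 11 lower. Together these were near the 55.1% of genes of at least 5 CPM that passed. In 5 alternatives fewer were higher than lower, such as 9 higher and 10 lower in cultures 3 and 4 alone. Of 27 genes of sterol synthesis 4 were higher and 8 lower, both below the shares of genes of at least 5 CPM. Dgat2, which makes triglycerides, was at 10.8, 11.1, 8.93 and 8.64 CPM and then at 64.8, 65.1, 46.2 and 47.1 CPM (log2 fold change 2.496 ± 0.143, adjusted p = 4.3e-09 from edgeR). Cd36, a fatty acid receptor, rose from 14.4 ± 2.96 to 30.6 ± 7.71 CPM. Cpt1a, which admits fatty acids to mitochondria for oxidation, fell from 111.7 ± 8.15 to 42.6 ± 4.55 CPM, and Pparg, a transcription factor of fat storage, from 141.5 ± 14.8 to 55.6 ± 11.8 CPM. Sqle, squalene epoxidase, fell from 129.3 ± 15.4 to 39.1 ± 6.54 CPM (log2 fold change -1.73).

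Of 36 genes of one-carbon metabolism and purine synthesis, 15 were lower and 8 higher (median log2 fold change -0.22), with 9 lower in cultures 3 and 4 alone. The share that was higher was near that of genes of at least 5 CPM. Ggh, which trims stored folates, was at 59.9, 59.1, 42.6 and 42.2 CPM and then at 7.37, 6.51, 12.4 and 11.6 CPM (log2 fold change -2.42 ± 0.190, adjusted p = 1e-07 from edgeR). Cultures 1 and 2 of Ggh lay above cultures 3 and 4 at exponential phase and below them at stationary phase.

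Of 51 genes of collagens and matrix, 12 were higher and 10 lower, near the shares over all genes tested, and in cultures 3 and 4 alone 10 were higher and 12 lower. The members that rose most were 3 matrix proteases and a collagen. Mmp12 was at 76.6, 73.8, 42.4 and 40.3 CPM and then at 448.2, 459.1, 258.4 and 192.7 CPM (log2 fold change 2.54 ± 0.265, adjusted p = 1.7e-06 from edgeR), Mmp10 rose by 2.14 and Mmp9 by 1.77 on the log2 scale. Col8a1, a short-chain collagen, rose from 25.2 ± 4.48 to 131.6 ± 45.4 CPM. Of 31 genes of actin, tubulin and adhesion, 15 were lower and 3 higher (median log2 fold change -0.45). Amotl2, an angiomotin and a target of the Hippo pathway, fell from 234.1 ± 17.6 to 57.2 ± 8.52 CPM, Tuba1c, an alpha tubulin with close copies, from 485.6 ± 128.2 to 190.3 ± 18.9 CPM, and Tagln2, an actin-bundling protein, from 1174 ± 124 to 552.7 ± 20.01 CPM. Actb was at 2584 ± 198 and 2222 ± 291 CPM (adjusted p = 0.13) and passed with the culture number as a block (log2 fold change -0.22, adjusted p = 0.018). Vim, vimentin, fell from 1429 ± 37.9 to 801.7 ± 69.8 CPM and Lgals1, galectin 1, from 1924 ± 336 to 773.4 ± 102.8 CPM. Of 32 genes of TGF-beta, Smad and Id proteins, 9 were lower and 5 higher, both below the shares of genes of at least 5 CPM. In cultures 3 and 4 alone 5 were lower and 3 higher. Ltbp1 fell by 1.33 and Tgfb1 by 0.94 on the log2 scale.

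Chaperones outside the ER went down more often than up, with 15 of 35 heat shock chaperones lower and 5 higher (median log2 fold change -0.26), and 6 lower and 5 higher in cultures 3 and 4 alone. Cryab, a small heat shock protein, fell from 11.02 ± 1.78 to 4.09 ± 1.36 CPM. Lonp1, the mitochondrial protease that the integrated stress response also raises, was at 244, 252, 270 and 258 CPM and then at 747, 710, 592 and 647 CPM (log2 fold change 1.396 ± 0.0979, adjusted p = 3e-08 from edgeR). Of 30 proteasome subunits 10 were lower, near the share of genes of at least 5 CPM, and 2 were higher. In cultures 3 and 4 alone 5 were lower. Of 51 genes of secretory transport 14 were higher and 9 lower with a median log2 fold change of 0.08, and of 58 genes of N-glycan synthesis and processing 16 were higher and 14 lower (median 0.06). In cultures 3 and 4 alone these counts were 6 higher and 2 lower for transport and 9 higher and 10 lower for N-glycans. Over all cultures, the share higher in both lists was a little above that of genes of at least 5 CPM, and the share lower was below it. Stt3a, a catalytic subunit of oligosaccharyltransferase, fell from 575.3 ± 64.4 to 384.0 ± 10.8 CPM, and Alg12, a mannosyltransferase, rose from 43.2 ± 6.09 to 77.9 ± 14.6 CPM.

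Of 30 genes of the Bcl2 family and caspases, 9 were lower and 5 higher, both below the shares of genes of at least 5 CPM. In cultures 3 and 4 alone 6 were lower and 1 was higher. Casp6, an executioner caspase, fell from 17.4 ± 2.89 to 6.71 ± 1.04 CPM (log2 fold change -1.37), and Cflar, which blocks caspase 8, rose from 39.1 ± 7.43 to 87.4 ± 5.79 CPM (log2 fold change 1.16). Creb1, a transcription factor of cyclic AMP signalling, was at 102.1 ± 12.3 and 84.8 ± 14.8 CPM (log2 difference -0.27, adjusted p = 0.11 from edgeR), and it passed with the culture number as a block (-0.28, adjusted p = 0.011). Of the markers of other cell types, 7 were tested, of which 1 was higher and 2 lower. Star fell by 2.13 on the log2 scale, and the other 6 were at or near 0, with at most 45 counts in any culture.

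Seen as shares of all counts on genes, the shift was a few percent of the library. ER chaperones and unfolded protein response genes held 1.67%, 1.64%, 1.69% and 1.79% of the counts in exponential cultures 1 to 4 and 4.72%, 4.83%, 3.71% and 3.47% in the stationary cultures. The integrated stress response list went from 0.553% ± 0.0572 to 1.16% ± 0.0166 and the Nrf2 list from 1.401% ± 0.0145 to 2.48% ± 0.0519 (SD, n = 4). Most of the rise of the Nrf2 list was in Fth1, given above, and in Hmox1, which went from 0.0885% ± 0.00721 to 0.337% ± 0.0962. DNA replication genes went from 0.752% ± 0.0253 to 0.344% ± 0.0644 and mitosis genes from 1.23% ± 0.0846 to 0.598% ± 0.163. In each of these 5 lists the phases did not overlap. The stationary cultures that held the least replication and mitosis RNA, 1 and 2, held the most ER chaperone RNA. In bulk RNA, fewer cells that express a gene and less of its RNA per cell cannot be told apart.

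**Figure D4:**
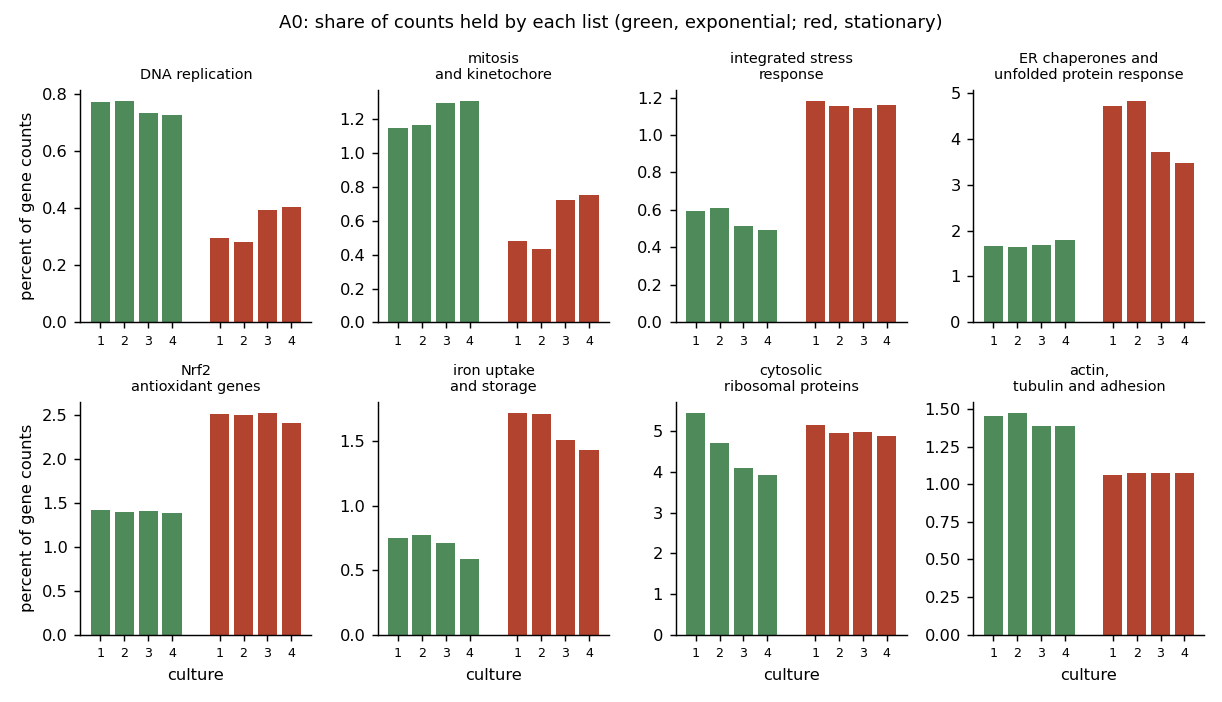
Each bar is 1 A0 culture and gives the percent of its counts on genes held by a list, exponential cultures 1 to 4 in green and stationary cultures 1 to 4 in red. Replication and mitosis lists were lower and stress, ER, antioxidant and iron lists higher in every stationary culture, while ribosomal proteins ran from 3.92% to 5.45% among exponential cultures and overlapped with the stationary ones.

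The change with growth phase was set beside that of A1, the amplified progeny, in 1 fit of both lines. The change differed in 1873 of 20953 genes (8.94%), with A0's log2 fold change the higher in 817 and the lower in 1056, and in 1624 of the 1873 the change was larger in size in A0. In that fit 8429 genes passed in A0 and 3612 in A1 (8.08% higher and 9.15% lower). The 2899 that passed in both made up 34.4% of A0's and 80.3% of A1's, with 2841 in the same direction. A0 had 4 cultures a phase, with 2 libraries summed for each exponential culture, and A1 had 3 cultures of 1 library. A1 stationary culture 1 held 6532373 counts and the other A1 libraries 11350552 to 13060749. Calls were thus easier to reach in A0. The number that differed ran from 1003 without A1 stationary culture 2 to 2653 without A0 exponential culture 4. Among replication genes the change was lower in A0 in 28 of 50 and higher in 0, with a median log2 fold change of -1.10 in A0 and -0.53 in A1. Among mitosis genes it was lower in A0 in 31 of 62 and higher in 0 (medians -0.94 and -0.43). In the integrated stress response it was higher in A0 in 18 of 46 and lower in 0 (medians 1.19 and 0.68), and among ER chaperones higher in 17 of 46 and lower in 0 (medians 0.49 and 0.13). These shares stand against 3.9% higher and 5.04% lower over all genes. Without A1 stationary culture 2 the counts were 16 lower for replication, 17 lower for mitosis, 14 higher for the stress response and 12 higher for ER chaperones.

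Sesn2 had the clearest difference from A1. It was at 41.8, 48.0 and 52.0 CPM in the exponential A1 cultures and 60.0, 45.5 and 53.1 CPM in the stationary ones, against 10.02 ± 1.16 and 81.0 ± 10.5 CPM in A0 on the same scale, and A0's change exceeded A1's by 2.86 ± 0.172 (log2, adjusted p = 5.1e-10 by edgeR). Ranbp3l fell in A0 and was at 10.7, 8.41 and 7.80 CPM before and 13.7, 21.2 and 17.9 CPM after in A1 (difference -3.34, adjusted p = 0.003). Dtna, a dystrobrevin, Lat, an adaptor of T cell receptor signalling, Cdc42ep2, an effector of Cdc42, and Ca3, a carbonic anhydrase, had differences of -2.77, -2.63, -2.30 and -2.29, each from a fall in A0 and a change in A1 that did not pass. Clic5, a chloride channel protein, and Mro had differences of 3.27 and 2.22. Cxcl3 and Cxcl1 had differences of 2.68 and 3.36, but A1 exponential culture 2 stood apart for both, at 214.2 CPM of Cxcl3 against 45.7 and 42.9 in the other 2, and without it neither passed (adjusted p = 0.13 and 0.33). Cxcl1 also failed to pass with DESeq2 (adjusted p = 0.056), both failed without A1 stationary culture 2 (adjusted p = 0.052 and 0.081), and Cxcl1 failed without A1 stationary culture 3 (adjusted p = 0.072).

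**Figure D5:**
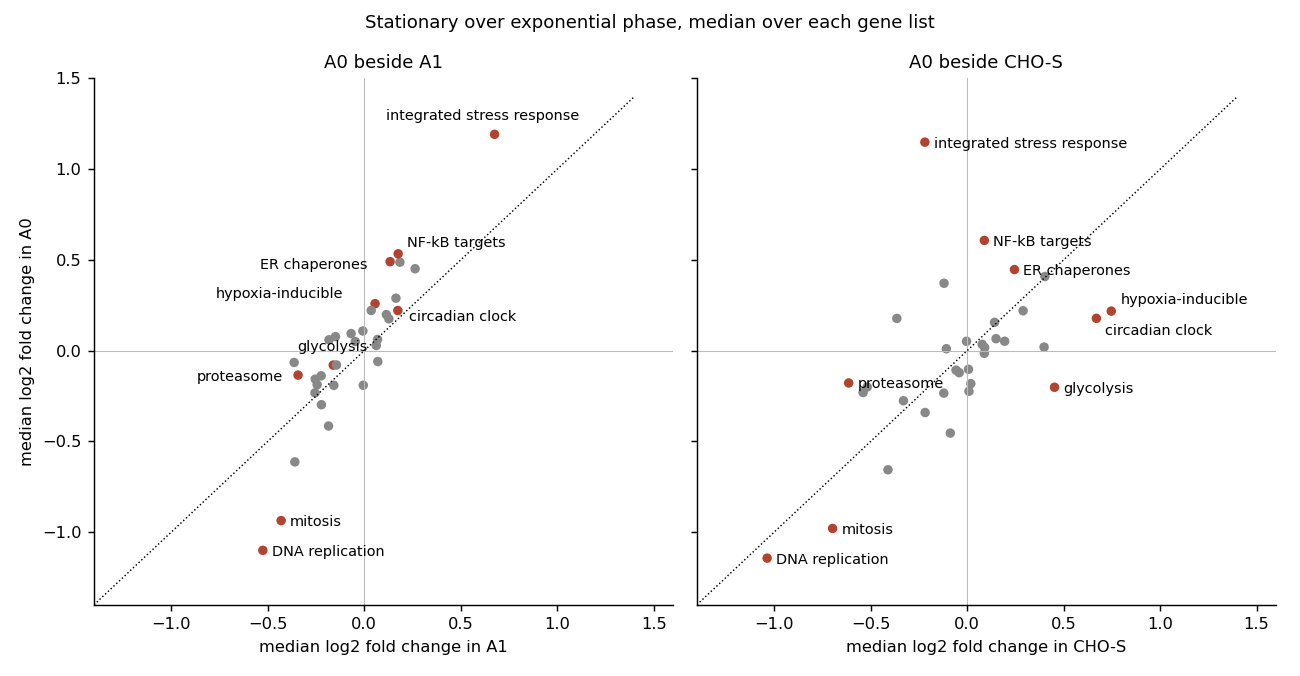
Each point is 1 gene list, with the median log2 fold change (stationary over exponential) of its members in A1 (left) or CHO-S (right) on the horizontal axis and in A0 on the vertical axis, from the joint fits. Points on the dotted line would have equal medians. Replication and mitosis lists lie farther from 0 in A0 than in A1, and the integrated stress response has a median of 1.15 in A0 and -0.22 in CHO-S.

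The change differed from that of CHO-S in 2159 of 20871 genes (10.3%), higher in A0 in 788 (3.78%) and lower in 1371 (6.57%), and in 1299 of them the change was larger in size in A0. Stationary CHO-S culture 1 held 1038026 counts and the other CHO-S libraries 7516854 to 14652646. Its reads fell outside genes in 32.8% of cases, against 18.1% and 18.2% in stationary cultures 3 and 2, and without it 3586 genes differed. The count was 1375 without CHO-S exponential culture 2 and 1417 without exponential culture 3. In CHO-S 7.81% of genes were higher and 7.48% lower. Shared calls numbered 1832, which is 27.4% of A0's and 57.4% of CHO-S's, with 1553 in the same direction. CHO-S also had fewer cultures and libraries than A0. The replication and mitosis genes fell in both lines (median log2 fold changes of -1.14 and -0.98 in A0, -1.04 and -0.70 in CHO-S), and 5 of 50 and 5 of 62 had a lower change in A0, with 1 and 0 higher. The integrated stress response separated the lines: the change was higher in A0 in 34 of 46 genes and lower in 0, and in CHO-S 6 rose and 10 fell. It was not the only list with 0 lower. The change was higher in A0 in 18 of 73 cytosolic ribosomal proteins, 11 of 59 ribosome biogenesis genes and 6 of 30 proteasome subunits. Without stationary CHO-S culture 1 these were 41, 26 and 17. Glycolysis and hypoxia-inducible genes went the other way, with a lower change in A0 in 10 of 27 and 12 of 32 and with 13 and 17 of them rising in CHO-S. These lists share members, such as Ldha and Aldoa, so they are not independent. Without the shallow culture the change was higher in A0 in 37 genes of the stress response, and lower in 14 of glycolysis, 13 of the hypoxia-inducible genes, 6 of replication and 6 of mitosis, with 4 and 1 of the last 2 lists higher.

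Trib3 was at 20.2, 22.2 and 21.4 CPM in the exponential CHO-S cultures and 14.6, 44.3 and 42.3 CPM in the stationary ones, and A0's change exceeded that of CHO-S by 3.00 ± 0.289 (log2, adjusted p = 1.8e-06 by edgeR), or by 2.87 without the shallow culture. Chac1, which degrades glutathione under Atf4 control, was at most 2.77 CPM in any CHO-S culture, and rose from 1.81 ± 0.752 to 13.3 ± 1.603 CPM in A0 (difference 2.80, adjusted p = 0.00033). Sema3a, Cxcl3 and Cxcl1 had differences of 3.48, 4.31 and 4.74. Aqp1 fell in A0 but was at 46.3, 45.2 and 41.4 CPM before and 59.3, 190.2 and 172.1 CPM after in CHO-S (difference -4.70, adjusted p = 1.5e-06). Wnt4 did likewise, at 57.0, 48.4 and 56.2 CPM before and 72.0, 199.1 and 197.8 CPM after in CHO-S (difference -4.03, adjusted p = 2.5e-07). For both genes the shallow CHO-S culture, the first of the stationary values, lay nearest to the exponential level. Nckap5, Fcho1, an endocytic adaptor, and Mefv, the inflammasome sensor pyrin, had differences of -4.26, -3.99 and -3.34, and Fcho1 rested on that shallow culture in CHO-S, at 196.5 CPM against 20.6 and 20.01 in the other 2. Without that culture the difference of Fcho1 was -2.37 (adjusted p = 2e-07).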

How the data were processed

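RNA of the clone A0 was measured by RNA-seq (TruSeq stranded mRNA kit) in 8 libraries at exponential and 4 at stationary phase. Per the labels and the methods, the authors aligned reads with STAR 2.5.4b to the Chinese hamster genome C_griseus_v1.0, counted them per gene with HTSeq-count 0.7.2, and deposited the counts without normalization. HTSeq-count drops reads that align to several places, and the strand setting is not given in the sources used here, so near-identical copies and overlapping or antisense genes are uncertain. The 5 summary lines of HTSeq-count were left out of library sizes and tests. Reads outside genes made up 15.7% ± 0.652 at exponential and 17.1% ± 1.67 at stationary phase. Of 28037 gene IDs, 24186 matched a RefSeq table of another assembly, used for symbols only.

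Exponential libraries of the same culture number were summed, giving 4 cultures a phase. The quasi-likelihood test of edgeR 4.0.16 under R 4.3.3 was run, two-sided and after TMM scaling, on genes seen with 1 count or more in 2 cultures or more and with a variance other than 0. P-values were adjusted by Benjamini and Hochberg over all genes tested, and the threshold was 0.05. CPM are TMM-scaled. The biological coefficient of variation was 0.134. Differences from A1 and CHO-S were tested as an interaction of line and phase in a fit of both lines. Deviations of A0 cultures from the phase means correlated between same-numbered cultures with r of 0.440, 0.335, 0.281 and 0.202 over 10508 genes. These genes share library and depth. Different numbers within cultures 1 and 2 or within 3 and 4 correlated with r of 0.190 to 0.343, so the numbers could not be told apart from these sets, and blocked values are given where they changed a call. On simulated counts, edgeR recovered 100% of 200 genes with a log2 change of 1 among 19729 genes, with 9 false calls. It recovered 78.5% for the difference from A1 and 70.5% for that from CHO-S. The changed genes all had at least 5 CPM, every gene had the same dispersion, and no sets of cultures were simulated. These shares therefore do not describe genes of fewer counts or the real spread between cultures.

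DESeq2 1.42.0, limma 3.58.1 (voom), other scalings and filters, the block, subsets of libraries and cultures, and fits without 1 culture served as alternatives. The text names genes with a symbol: the 12 largest rises and falls among called genes of at least 5 CPM with no overlap, up to 4 called members a list and up to 2 that did not pass or went against it, 12 genes by name, and the 5 largest differences from each other line in each direction. From these, some genes are not reported here. Of 1392 listed symbols, 1293 matched. Members, lists and the genes by name were chosen with earlier results of these data known. Python 3.11.15 with numpy 2.4.6 and pandas 2.3.3 was used for the rest.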

Additional observations from a re-analysis of the deposited data

Results flagged for a closer look

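Among 286 sets of 4 cultures, one for each gene described at each phase, 3 had 1 culture that Dixon's test set apart from the others, where chance alone gives about 1 in 20 sets, which is more than were found. Exponential culture 4 had 256.3 CPM of Kiaa0101 against 544 to 571 in the other exponential cultures, and 79.8 CPM of Cdkn1a against 107.7 to 112.2. Stationary culture 3 had 5.30 CPM of Ca3 against 3.21 to 3.48 in the other stationary cultures.

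The phase change of A0 differed from that of A1 in 1873 genes by the test of the interaction in edgeR. Among those named, the difference (A0 minus A1, log2) was -3.34 for Ranbp3l, -2.77 for Dtna, -2.63 for Lat, -2.30 for Cdc42ep2 and -2.29 for Ca3. It was 2.22 for Mro, 2.68 for Cxcl3, 2.86 for Sesn2, 3.27 for Clic5 and 3.36 for Cxcl1. A0's own changes for these genes ran from -2.53 for Dtna to 4.83 for Cxcl3, and those of A1 from -0.05 for Clic5 to 2.15 for Cxcl3.

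From CHO-S the phase change of A0 differed in 2159 genes. The difference (A0 minus CHO-S, log2) was -4.70 for Aqp1, -4.26 for Nckap5, -4.03 for Wnt4, -3.99 for Fcho1 and -3.34 for Mefv. It was 2.80 for Chac1, 3.00 for Trib3, 3.48 for Sema3a, 4.31 for Cxcl3 and 4.74 for Cxcl1. The 5 genes with a negative difference fell in A0 and had log2 fold changes of 1.21 to 2.40 in CHO-S. That of Fcho1, 1.87, rested on the shallow stationary CHO-S culture, without which its difference was -2.37 beside a change of -2.12 in A0.

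Reads that did not align to the genome, which no comparison used, made up 7.93% ± 1.45 of the reads of stationary A0 cultures and 3.85% ± 0.762 of those of exponential ones (SD, n = 4), without overlap. What these reads are was not tested.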

How the results depend on the processing

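The count of genes changed in A0 stayed within 1.5 times of 7647 under all 23 alternatives run, from 5195 (cultures 3 and 4 alone) to 8661 (culture number as a block), and from 6639 to 7711 without 1 culture. Of the main calls, 7482 also passed with the block, which lost the call of no gene described, and 7192 passed without the RLT libraries. Of 143 genes described, 129 passed, 0 of these changed direction, and 123 kept their call in every alternative.

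The block also brought Cenpf, Fosl1, Actb, Creb1 and S100a6 (log2 fold change -0.40 without it) past the threshold, and changed no other call among the genes described. Uncalled genes near 0 changed sign: Pola1 to -0.12 and Cdkn1a to -0.021 in cultures 1 and 2 alone, Icam1 to 0.14 and Cdk1 to 0.10 in cultures 3 and 4 alone, Cdk1 to 0.043 and Rela to 0.034 with upper quartile scaling, Cdk1 to 0.016 and Rela to 0.0096 with total counts, and Cdk1 to 0.016 with plain libraries only. Without 1 culture, Cdk1 ran from -0.10 to 0.016, Rela from -0.11 to 0.015 and Cdkn1a from -0.082 to 0.056.

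The differences between lines depended on single cultures. For A1 the count ran from 1003 to 2653 without 1 culture (higher 414 to 1161, lower 589 to 1492). With a replicate block of culture number within line it was 3435 (1565 higher, 1870 lower). Same-numbered cultures of A1 had r of -0.185, -0.162 and 0.188, and the numbers of A0 could not be told apart from the sets of cultures. For CHO-S the count ran from 1375 to 3586 (higher 487 to 1760, lower 888 to 1826), and 1311 genes were higher with DESeq2. The cause was not tested. Depth limits genes of few counts, for which the stationary cultures, with 1 library each, hold about as many reads as 1 exponential library. Counting list members without the RLT libraries, with upper quartile scaling and, for differences between lines, without 1 stationary culture of A1 or CHO-S was chosen after seeing the data.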
